A study of Homo sapiens with 6 samples.

Results

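The haematopoietic growth factor receptors examined here are 9 genes: KIT, FLT3, CSF1R, CSF2RA, CSF2RB, CSF3R, IL3RA, IL6R and IL10RA. Their members are every probe set that the platform annotation maps to exactly 1 of these symbols, which gave 15 of the 54613 probe sets tested, and 9 of 19775 genes. The cells were THP1, a monocytic acute myeloid leukaemia line. In the Dll4-Fc group (3 arrays) they grew for 48 hours on immobilised Dll4-Fc, a fusion of the Notch-activating protein Delta-like 4 with the Fc end of an antibody; the sample labels put it at 60 nM and the treatment protocol at 30 nM. In the untreated group (3 arrays), which the protocol calls vehicle, the same line was kept for 48 hours without it; a control with Fc protein alone is not among the labelled groups. THP1 is a single line. Separate cultures are not stated for the replicates, so the p-values cover the spread among these 6 samples alone, and that spread may be technical. Expression was measured on Affymetrix Human Genome U133 Plus 2.0 arrays.

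Blood cell precursors survive, divide and mature under the control of growth factors that act through surface receptors of a few structural families. KIT, FLT3 and CSF1R are class III receptor tyrosine kinases, which carry their own kinase and bind stem cell factor, FLT3 ligand and macrophage colony-stimulating factor (M-CSF). The chains for granulocyte-macrophage colony-stimulating factor (GM-CSF), interleukin 3 (IL-3), granulocyte colony-stimulating factor (G-CSF), interleukin 6 (IL-6) and interleukin 10 (IL-10) have no kinase and signal through Janus kinases (JAK) and STAT factors. KIT and FLT3 are typical of immature cells, CSF1R and IL10RA of monocytes and macrophages, and CSF3R of granulocytes and their precursors.

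The arrays resembled each other closely. Across genes, which are not independent replicates, pairs within a group had a Pearson r of 0.997 to 0.999, and pairs between groups 0.981 to 0.985. The ACTB signal ratio of 3′ over 5′ probe sets, a measure of RNA integrity, lay between 0.63 and 0.70 on the log2 scale in Dll4-Fc arrays and between 0.69 and 0.78 in untreated arrays. The same ratio for GAPDH lay between 0.381 and 0.393 in Dll4-Fc arrays and between 0.366 and 0.395 in untreated arrays. The part of these ratios in the results was not tested. Of 13 measured monocytic marker genes 12 lay above the median probe set signal in both groups, and their summed intensity was 57081 to 58606 with Dll4-Fc and 38614 to 39309 untreated. Of the 13, 9 rose and 2 fell, namely the azurophil granule genes CTSG (2.83-fold lower, adjusted p = 3.6e-06) and MPO (1.73-fold lower, adjusted p = 0.00183). Markers of T and NK cells summed to 479 to 537 with Dll4-Fc and 472 to 513 untreated over 12 genes. Those of mast cells and basophils, which carry KIT, summed to 224 to 253 with Dll4-Fc and 225 to 245 untreated over 6 genes, and 0 genes of both lists passed limma's test. Stromal markers summed to 5273 to 5473 with Dll4-Fc and 3661 to 3974 untreated, with PECAM1, an adhesion molecule that leukocytes also carry, the 1 of 10 that rose. B cell markers summed to 440 to 504 with Dll4-Fc and 396 to 418 untreated, where PAX5 was the 1 of 7 that rose. Erythroid and megakaryocytic markers summed to 628 to 719 with Dll4-Fc and 642 to 714 untreated, where GP9 was the 1 of 8 that fell. The part of these lists in the receptor results was not tested. Over all genes 2298 rose (11.6%) and 2964 fell (15%); with cyclic loess scaling 2860 rose and 2465 fell. Omitting Dll4-Fc replicate 1 left 1854 lower genes, and omitting untreated replicate 2 left 1960. RMA values hold no count of cells, so fewer cells expressing a gene and less RNA per cell cannot be told apart.

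With Dll4-Fc the IL-10 receptor gene IL10RA and the M-CSF receptor gene CSF1R rose several-fold, KIT fell about as far, and the remaining receptor genes moved little or did not pass. Of the 9 genes 4 rose (IL10RA, CSF1R, CSF2RB and FLT3), 2 fell (KIT and CSF3R) and 3 did not pass (CSF2RA, IL3RA and IL6R), where passing means a limma adjusted p below 0.05. These counts stand beside 11.6% of all genes higher, 15% lower and 26.6% either way. At least 2-fold changes were 2 rises (IL10RA and CSF1R), beside 2.6% of all genes and 1.65% of all probe sets, and 1 fall (KIT), beside 0.602% of genes and 0.385% of probe sets. By probe set, 4 of 15 rose and 3 fell, against 7.21% and 9.26% of all probe sets (16.5% either way). The number of all probe sets that fell was 5059, and it was 2927 when Dll4-Fc replicate 1 was omitted, 2906 for Dll4-Fc replicate 2, 3358 for untreated replicate 1 and 2977 for untreated replicate 2; the receptor probe sets that fell numbered 3 in each of these. The groups did not overlap for 8 of the 9 genes, where 41.6% of all genes did so, and for 10 of the 15 probe sets, where 33.2% of all probe sets did so. The median difference of the 9 genes was 0.13 on the log2 scale and that of all genes -0.01. All 15 probe sets had a mean above the median probe set signal of 5.69, from the 51.1 to the 99 percentile. Lying there does not show detection, as 3 of 12 T and NK markers also lay above that median in both groups. The means were 6.68 for NCAM1 of that list, 5.76 for the IL6R probe set 217489_s_at and 6.12 for KIT with Dll4-Fc. The SD within a group ran from 0.01 to 0.22 over the 15.

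**Figure D1:**
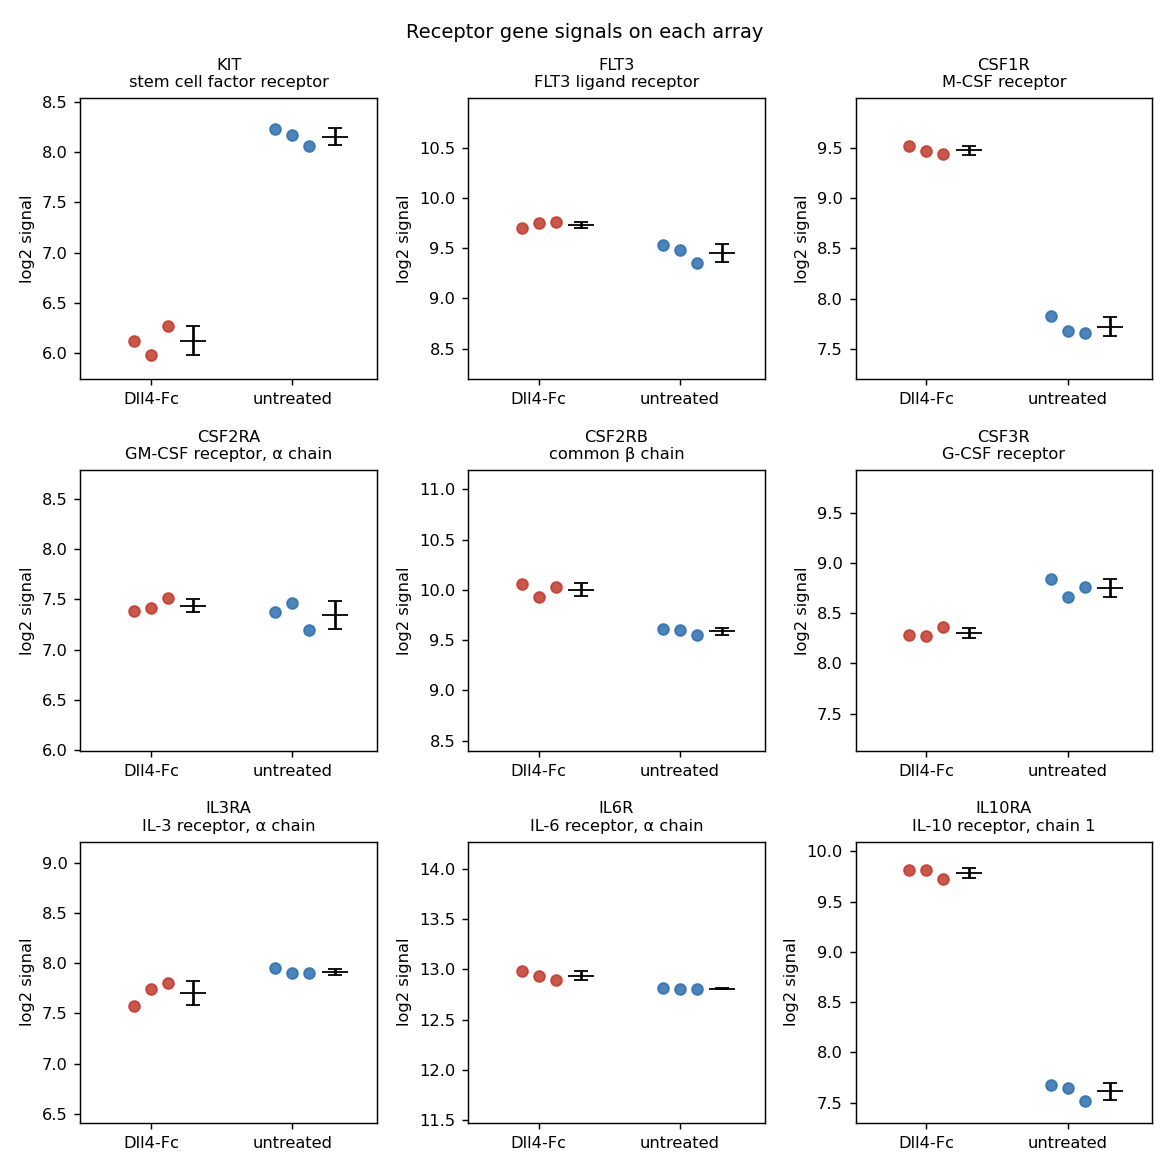
Log2 signal (y axis) of the 9 receptor genes on each of the 3 Dll4-Fc arrays (red, left) and 3 untreated arrays (blue, right), with the group mean and SD in black. Every panel covers the same span of log2 units around the gene's own level. KIT is 2.03 lower with Dll4-Fc, IL10RA 2.17 and CSF1R 1.75 higher, and CSF2RA is the gene whose groups overlap.

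Among the tyrosine kinase receptors, KIT and CSF1R changed in opposite directions. KIT, the stem cell factor receptor, had log2 signals of 6.13, 5.98 and 6.27 in Dll4-Fc arrays, against 8.23, 8.17 and 8.07 in untreated arrays. Every Dll4-Fc array lay below every untreated one. The difference was -2.03 ± 0.09 (SE, n = 3 per group), 4.09-fold lower, with an adjusted p of 4.21e-06 over all probe sets. In the fit over all genes 3 genes fell further. KIT, at chr4:54657957-54740715 on GRCh38.p14, was read by 1 probe set, 205051_s_at, which is shared between transcripts, and it has no value where shared probe sets are left out.

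CSF1R, the receptor for M-CSF and for interleukin 34 (probe set 203104_at), had log2 signals of 9.52, 9.47 and 9.44 with Dll4-Fc and 7.83, 7.68 and 7.66 untreated. The groups lay far apart relative to their spread of 0.04 and 0.09 (SD). The difference was 1.75 ± 0.07, 3.37-fold higher (adjusted p = 2.6e-06), and 218 genes had a larger rise. FLT3, the kinase receptor of early progenitors, at chr13:28003274-28100576 and read by 206674_at, had 9.70, 9.75 and 9.76 with Dll4-Fc, against 9.53, 9.48 and 9.36 untreated. All 3 Dll4-Fc arrays lay above the untreated ones, by 0.28 ± 0.07 or 1.21-fold (adjusted p = 0.0303). This small rise did not pass over all probe sets with median centring (adjusted p = 0.0585) or when Dll4-Fc replicate 1 (adjusted p = 0.0802), replicate 2 (0.0973) or replicate 3 (0.0856), or untreated replicate 2 (0.0783) or replicate 3 (0.0556), was omitted, with values of 0.23 to 0.30 throughout. Over all genes it passed with an adjusted p of 0.0145, and gave 0.0529 without Dll4-Fc replicate 2.

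The promoters of the receptor genes with at least 2-fold changes are shown because KIT on the one hand and CSF1R and IL10RA on the other moved in opposite directions. Each runs from 250 bases before to 50 bases after a transcript start, taken from RefSeq on GRCh38.p14, 5′ to 3′ on the gene's strand. Of the 9 genes 8 had an entry, and CSF1R and CSF3R had a pair of starts each. Capitals mark matches on either strand to GAGGAA, the core bound by the myeloid factor PU.1, to TGTGGT, bound by RUNX factors, to TGGGAA, bound by RBPJ, the DNA-binding partner of Notch, to the STAT pattern TTCNNNGAA and to the interferon response pattern, which is GAAA, any 2 bases and GAAA again.

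KIT, chr4:54657707-54658006, plus strand: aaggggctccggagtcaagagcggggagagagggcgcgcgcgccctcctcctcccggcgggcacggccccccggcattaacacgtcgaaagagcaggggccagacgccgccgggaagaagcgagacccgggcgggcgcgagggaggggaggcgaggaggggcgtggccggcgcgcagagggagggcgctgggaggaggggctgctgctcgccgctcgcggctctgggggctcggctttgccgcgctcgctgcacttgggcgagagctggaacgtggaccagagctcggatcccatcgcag
CSF1R, downstream start, chr5:150086505-150086804, minus strand: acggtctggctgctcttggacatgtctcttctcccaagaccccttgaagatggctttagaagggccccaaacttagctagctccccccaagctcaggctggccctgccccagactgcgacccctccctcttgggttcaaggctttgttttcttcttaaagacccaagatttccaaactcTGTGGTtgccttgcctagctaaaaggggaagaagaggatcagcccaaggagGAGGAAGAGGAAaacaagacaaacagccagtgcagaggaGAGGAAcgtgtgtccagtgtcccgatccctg
IL10RA, chr11:117989695-117989994, plus strand: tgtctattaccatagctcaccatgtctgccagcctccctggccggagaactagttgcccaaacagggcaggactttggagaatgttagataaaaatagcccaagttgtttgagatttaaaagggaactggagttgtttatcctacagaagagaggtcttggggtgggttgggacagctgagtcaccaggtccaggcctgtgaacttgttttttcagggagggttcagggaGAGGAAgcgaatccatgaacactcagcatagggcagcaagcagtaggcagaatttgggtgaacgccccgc

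The KIT window held 0 matches to the 5 motifs and had a GC content of 74.3%. The downstream start of CSF1R, inside the gene's locus at chr5:150053295-150113365, is the one used in macrophages, while the upstream one is known from placental cells. Its window held 3 PU.1 cores, at positions -20 to -15, -14 to -9 and 20 to 25 from the start, and 1 RUNX core at -71 to -66. No 2 of these matches overlapped. The window of the upstream start held 0 matches. The IL10RA window, from its only entry, lay inside the gene's locus at chr11:117986394-118003037, downstream of the locus start. It held 1 PU.1 core, at -20 to -15 from that internal start. Of 34796 promoters of this length, 27.9% hold the PU.1 core, 13.1% the RUNX core, 24% the RBPJ core, 7.67% the STAT pattern and 3.57% the interferon pattern. Among the other receptor promoters, PU.1 cores numbered 2 each in CSF2RA and IL6R and 1 each in FLT3 and at 1 of the CSF3R starts, RBPJ cores 2 in CSF2RA, RUNX cores 1 at the other CSF3R start (15 to 20), and STAT patterns 3 in IL3RA. The matches describe letters only; the arrays measured no binding and do not separate the starts of a gene.

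The chains of the GM-CSF and IL-3 receptors share CSF2RB, the common beta chain, which pairs with a ligand-specific alpha chain. CSF2RB, at chr22:36913628-36940439 and read by 205159_at, had log2 signals of 10.06, 9.93 and 10.03 with Dll4-Fc, against 9.62, 9.60 and 9.55 untreated. The groups did not overlap, and the rise was 0.42 ± 0.07, 1.33-fold (adjusted p = 0.00416). The alpha chains did not pass. IL3RA (206148_at), which gives the complex its hold on IL-3, had 7.57, 7.75 and 7.80 with Dll4-Fc and 7.95, 7.90 and 7.90 untreated. All Dll4-Fc arrays lay lower without overlap, yet the difference of -0.21 ± 0.08 did not pass (adjusted p = 0.113); its 95% interval, which is not adjusted for multiple tests, was -0.39 to -0.03.

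CSF2RA, the alpha chain for GM-CSF, was read by 4 probe sets, and the groups overlapped in each. On the brightest, 207085_x_at, the signals were 7.38, 7.42 and 7.51 with Dll4-Fc and 7.38, 7.46 and 7.19 untreated. Differences over the 4 ran from -0.01 to 0.11, 0 of 4 passed limma's test, also at an unadjusted p under 0.05, and the lowest adjusted p was 0.449. The 95% interval on the brightest was -0.10 to 0.29, so changes of that size are not excluded. All 4 are in the class called shared between transcripts, where 210340_s_at is named _s_at and the others _x_at. Which transcripts they bind was not examined. Both alpha chain genes lie at the tip of the X chromosome, CSF2RA at chrX:1268814-1325218 and IL3RA at chrX:1336785-1382689 on GRCh38.p14.

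CSF3R, the G-CSF receptor of granulocytic cells, at chr1:36466043-36483314, fell. Its brighter probe set, 1553297_a_at, had log2 signals of 8.28, 8.27 and 8.36 with Dll4-Fc, against 8.84, 8.66 and 8.76 untreated. The dimmer, 203591_s_at, had 6.45, 6.12 and 6.54 with Dll4-Fc, against 7.05, 7.09 and 6.87 untreated. On both, every Dll4-Fc array lay below every untreated one. The differences were -0.45 ± 0.07, 1.36-fold lower (adjusted p = 0.00439), and -0.64 ± 0.12, 1.56-fold lower (adjusted p = 0.00854); whether the 2 differ was not tested. Both are shared between transcripts, so CSF3R, like KIT, has no value without such probe sets.

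**Figure D2:**
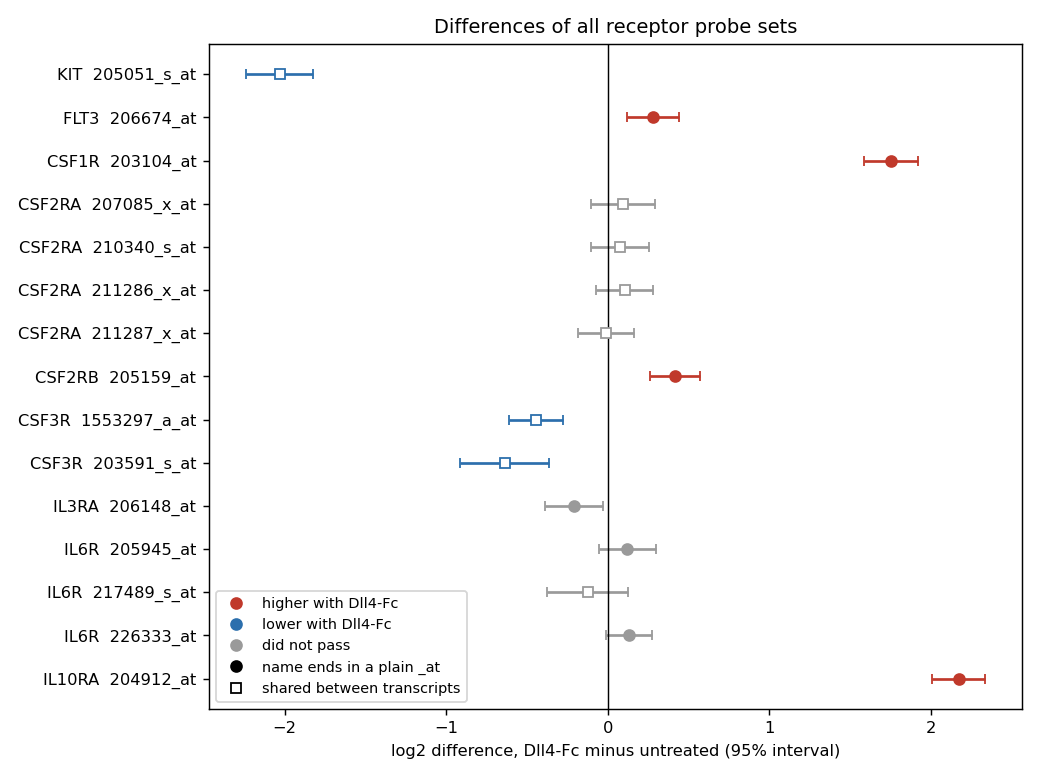
Log2 difference, Dll4-Fc minus untreated (x axis), of the 15 receptor probe sets (y axis) with its 95% interval, not adjusted for multiple tests. Colours give the call over all probe sets and open squares mark names called shared between transcripts. The 3 probe sets that fell are all open squares and the 4 that rose are all filled circles, while the 4 CSF2RA probe sets sit between -0.01 and 0.11.

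IL10RA, the ligand-binding chain of the receptor for the anti-inflammatory cytokine IL-10, showed the largest rise of the 9 genes. It lies at chr11:117986394-118003037 and was read by 204912_at. Its log2 signals were 9.82, 9.81 and 9.72 with Dll4-Fc, against 7.68, 7.64 and 7.52 untreated. The lowest Dll4-Fc array lay far above the highest untreated one. The rise was 2.17 ± 0.07, 4.51-fold (adjusted p = 7.74e-07), and 164 genes had a larger one. Its partner IL10RB, the second chain that IL-10 needs for signalling, rose by 0.36 ± 0.06 (adjusted p = 0.0031 over all genes), with 12.12, 12.14 and 12.18 with Dll4-Fc and 11.83, 11.81 and 11.71 untreated.

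IL6R, the IL-6 binding chain, at chr1:154405343-154469450, did not pass on any of its 3 probe sets. The brightest, 226333_at, at the 99 percentile of all probe sets, had 12.98, 12.93 and 12.90 with Dll4-Fc and 12.81, 12.80 and 12.80 untreated. Its groups did not overlap, with a difference of 0.13 ± 0.06 (adjusted p = 0.21, 95% interval -0.01 to 0.27). The other probe sets differed by 0.12 ± 0.08 and by -0.12 ± 0.11, the second of them at 5.70 with Dll4-Fc and 5.82 untreated, next to the median probe set signal. At an unadjusted p under 0.05 limma called 0 of the 3 in the fit over all probe sets. In limma's fit over all genes 226333_at had an unadjusted p of 0.0362 and an adjusted p of 0.107. Its 95% interval there was 0.01 to 0.25. IL6ST, the gp130 chain through which IL-6 signals, differed by 0.19 ± 0.06 without passing (adjusted p = 0.0659). In the fit over all probe sets 0 of its 7 probe sets passed. IL6ST passed in 5 of 15 alternatives. These were cyclic loess scaling (0.24, adjusted p = 0.0198), a trended prior (0.0126), no dim probe sets (0.0339), array weights (0.0346) and an offset (0.0368).

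**Figure D3:**
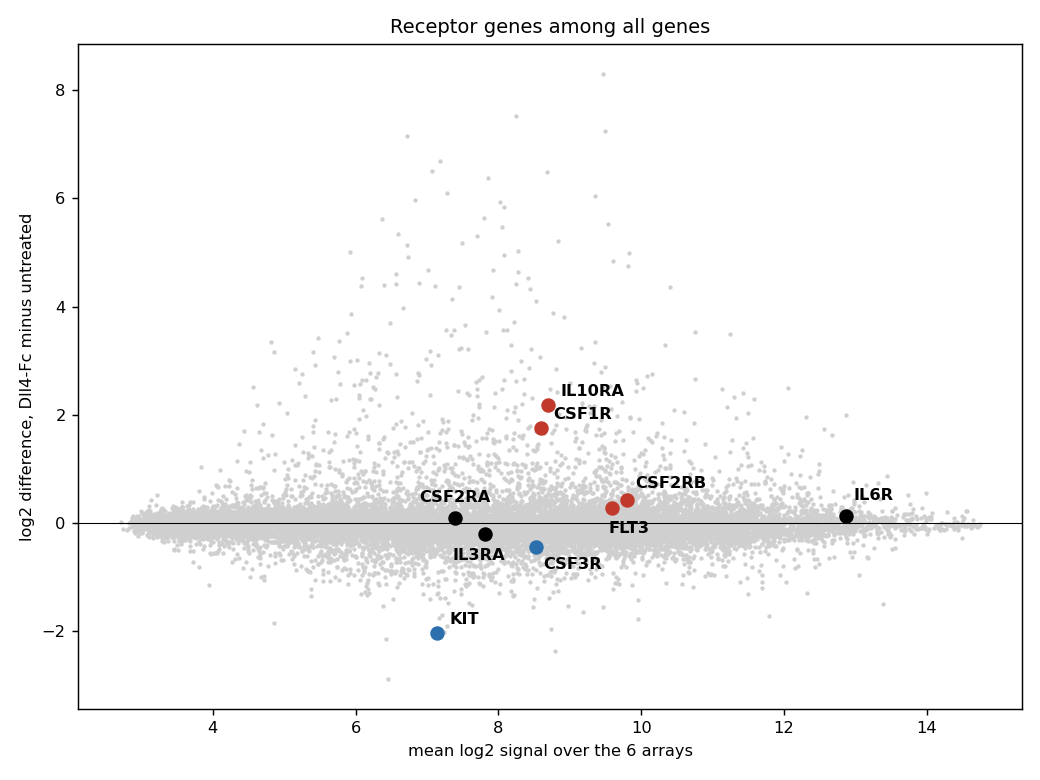
Log2 difference, Dll4-Fc minus untreated (y axis), against the mean log2 signal over the 6 arrays (x axis) for all 19775 genes (grey) and the 9 receptor genes (red higher, blue lower, black not past the test). IL10RA at 2.17 and CSF1R at 1.75 lie above the bulk of genes and KIT at -2.03 below it, and the other 6 lie within 0.45 of 0.

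Most of the receptors' ligand genes showed no call. Of 10 measured ligand genes 1 rose (10%) and 1 fell (10%), shares near the 11.6% of all genes that rose and 15% that fell, with a median of -0.07. KITLG, which encodes stem cell factor, the ligand of KIT, had log2 signals of 8.64, 8.53 and 8.72 with Dll4-Fc, against 9.52, 9.41 and 9.34 untreated. The groups did not overlap. The difference was -0.79 ± 0.07, 1.73-fold lower (adjusted p = 0.000248), and 1 of its 4 probe sets passed; the mean of the 4 gave -0.32 (adjusted p = 0.0133). CSF1, which encodes M-CSF, the ligand of CSF1R, had 6.84, 7.01 and 7.04 with Dll4-Fc and 6.42, 6.35 and 6.74 untreated. It rose by 0.46 ± 0.11 (adjusted p = 0.0188), on 1 of 4 probe sets. Its call was lost on omitting Dll4-Fc replicate 2 (adjusted p = 0.0638) or 3 (0.0628), or untreated replicate 1 (0.0637) or 2 (0.0628), and the mean of its probe sets gave 0.08 (0.444). The genes of FLT3 ligand (FLT3LG, -0.03), interleukin 34 (IL34, -0.12), G-CSF (CSF3, -0.10), IL3 (0.13), IL5 (0.07), IL6 (-0.13), IL11 (0.07) and IL10 (-0.16) did not pass. FLT3LG, IL3, IL5, IL6 and IL10 also lay below the median probe set signal in mean; CSF2 was not analysed here.

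Partner and related receptor genes that passed were all higher. Of 31 measured 9 rose (29%, beside 11.6% of all genes) and 0 fell (beside 15%), also 0 at an unadjusted p under 0.05 in limma's test. The median was 0.11, and that of all genes -0.01. The interferon gamma receptor gene IFNGR1 rose 2.99-fold (1.58 ± 0.06) and its partner IFNGR2 by 0.57 ± 0.06. IL21R, the receptor for interleukin 21, rose 2.82-fold (adjusted p = 6.28e-05), and IL4R, the interleukin 4 receptor chain, by 0.78 ± 0.07. IL7R, the interleukin 7 receptor chain, rose by 0.63 ± 0.12 and the type I interferon receptor gene IFNAR2 by 0.47 ± 0.06.

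Genes that carry the receptors' signals moved in either direction: 8 of the 29 measured were higher (27.6%, beside 11.6% of all genes) and 7 lower (24.1%, beside 15%), with a median of 0.02. The SRC-family kinase genes FGR (0.83 ± 0.07) and LYN (0.77 ± 0.06) rose, as did MAP2K1, the MAP kinase kinase MEK1 (0.56 ± 0.05), and the signalling adaptor TYROBP (0.53 ± 0.05). The tyrosine kinase gene FES fell by 0.70 ± 0.07 and SOS1, an activator of RAS, by 0.45 ± 0.05 (-0.23 as the mean of its probe sets). STAT3, which acts downstream of the IL-6, IL-10 and G-CSF receptors, rose by 0.26 ± 0.06 (adjusted p = 0.018), a call lost without Dll4-Fc replicate 1 (0.0625) or Dll4-Fc replicate 3 (0.0557). TYK2, a kinase bound to IL10RB, passed narrowly at 0.24 ± 0.07 (adjusted p = 0.0497), and was lost on omitting Dll4-Fc replicate 1, 2 or 3, or untreated replicate 1 or 2 (adjusted p = 0.0592 to 0.143), and with median centring (0.0639). JAK1 (-0.10), JAK2 (0.23), STAT5A (0.08) and STAT5B (-0.17) did not pass.

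Brakes and early target genes of these and related receptors included large changes. Among 39 measured genes there were 17 rises (43.6%, beside 11.6% of all genes), of which 7 reached 2-fold (2.6% of all genes did). The list was chosen with earlier results of these data known, so this excess is no test of it. The 5 falls (12.8%) lay near the 15% of all genes, and the median was 0.14. USP18, which limits interferon receptor signalling, rose 9.75-fold (3.29 ± 0.13) and DUSP6, the phosphatase that switches off ERK, 4.1-fold (2.03 ± 0.06). SPRED1, an inhibitor of RAS signalling, rose by 1.68 ± 0.14, SLA, an adaptor that lowers receptor levels, by 1.38 ± 0.07, and the phosphatase gene PTPRE by 1.29 ± 0.06. The untreated SPRED1 signals of 4.69, 5.09 and 4.55 lay below the median probe set signal of 5.69, as did its mean over all arrays (5.62). SOCS2, a STAT5-induced inhibitor of cytokine receptors, fell 4.07-fold, with 6.20, 6.14 and 6.33 with Dll4-Fc and 8.48, 8.29 and 7.97 untreated. When the probe sets of each gene were averaged, PTPRE gave 0.64, SPRED1 0.77 and SOCS2 -1.08, each still past the test. CISH, a SOCS family member and STAT5 target, fell by 0.30 ± 0.06 on the log2 scale, and SOCS3, induced by STAT3, differed by -0.06 ± 0.09 without passing. The other 3 that fell were MYC (-0.53), PIAS1 (-0.40) and PIAS3 (-0.24), named to complete the count.

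**Figure D4:**
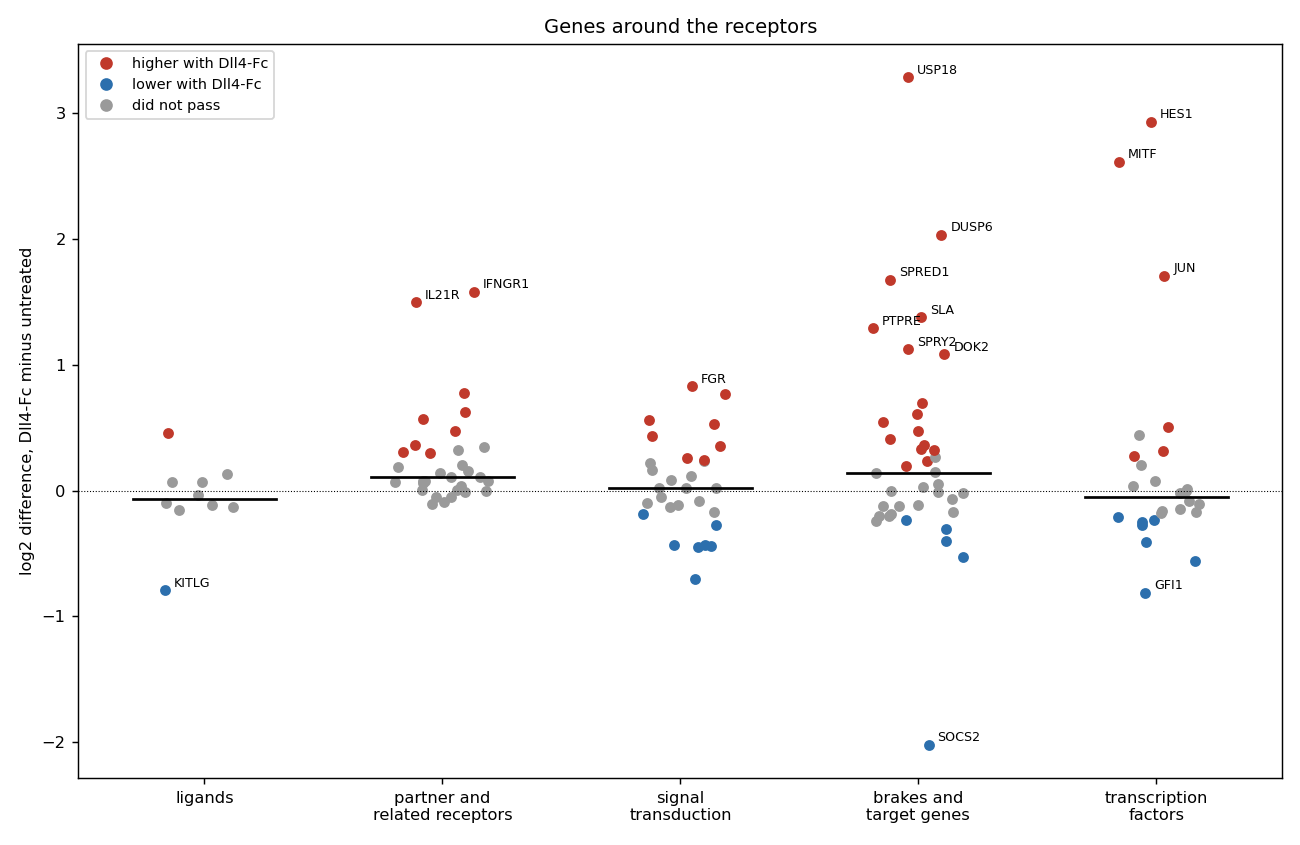
Log2 differences, Dll4-Fc minus untreated (y axis), of the measured genes in 5 groups around the receptors (x axis), with 1 point per gene, black bars at group medians, and colours by call; the passing genes that differ most are labelled. The medians lie between -0.07 and 0.14, and the widest span is that of the brakes and target genes, with SOCS2 at -2.02 and USP18 at 3.29.

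Transcription factors described as acting on these receptor genes were divided. Of 26 measured 6 rose (23.1%, beside 11.6% of all genes) and 7 fell (26.9%, beside 15%), with a median of -0.05. SPI1, which encodes PU.1, a driver of CSF1R and other myeloid receptor genes, rose by 0.31 ± 0.06 (adjusted p = 0.00704), and CEBPB, a factor of monocytes and macrophages, by 0.50 ± 0.05. MITF, a partner of PU.1 in osteoclasts, rose 6.13-fold (2.62 ± 0.09), and JUN by 1.71 ± 0.11; the mean of its probe sets gave 1.72 for MITF, and JUN gave 0.60 without shared probe sets (adjusted p = 0.0155). HES1, the repressor downstream of Notch, rose 7.65-fold (2.93 ± 0.20), although its probe set not shared between transcripts gave 0.00 (adjusted p = 0.988). The untreated HES1 signals behind that fold, 5.20, 4.54 and 5.32, lay below the median probe set signal of 5.69. GATA2, a factor of progenitors and mast cells that acts on KIT, rose by 0.28 ± 0.06, a call lost without untreated replicate 1 (0.0514) and as the mean of its probe sets (0.14, adjusted p = 0.186). In the opposite direction GFI1, a repressor of granulocytic precursors, fell by 0.81 ± 0.06 on the log2 scale, the stem cell factor LYL1 by 0.56 ± 0.05 and MYB, which acts on KIT, by 0.41 ± 0.05. CEBPA, a driver of CSF3R, differed by -0.21 ± 0.06 (adjusted p = 0.0447), a call that 5 of the 6 single-array omissions ended, all but that of untreated replicate 3 (adjusted p = 0.0702 to 0.14), as did median centring (0.0719) and leaving out shared probe sets (0.0626). IRF8 differed by -0.16 ± 0.06 without passing, and RUNX1 was not analysed here.

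For the 3 receptor genes with at least 2-fold changes, the genes of most similar pattern were found by the root mean square distance over the 6 arrays, each gene centred on its own mean. Closest to KIT were the long noncoding RNA MIR1915HG (0.058), STYXL2 (0.079) and SOCS2 (0.106). Closest to CSF1R were IRF9, a factor of interferon signalling (0.024), GALM, an enzyme of galactose metabolism (0.046), and the leukocyte integrin ITGAL (0.054). Closest to IL10RA were RAB7B, a small GTPase of late endosomes (0.047), IFIH1, a cytosolic sensor of viral RNA (0.055), and RCAN1, a regulator of calcineurin (0.064). With arrays in 2 separate groups, this distance mostly matches the size of the difference between them.

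**Figure D5:**
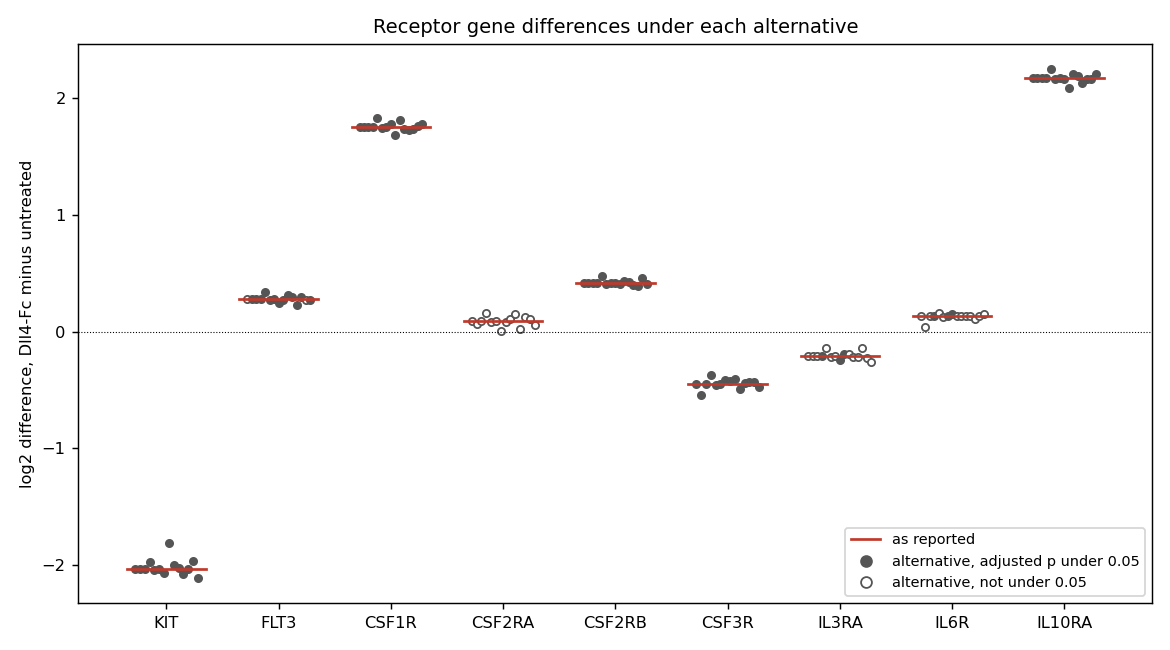
Log2 difference, Dll4-Fc minus untreated (y axis), of each receptor gene (x axis) as reported (red line) and under each alternative that gave a value (points, filled where the adjusted p is under 0.05). KIT stayed between -2.10 and -1.81, CSF1R between 1.68 and 1.82 and IL10RA between 2.09 and 2.24, while the points of FLT3, IL3RA and IL6R are of both kinds.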

How the data were processed

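The 6 arrays hold RNA from THP1 cells, 3 per group. The deposited values are linear intensities, 1 per probe set and array, which the authors made with RMA (background correction, quantile normalization and summary of probes) per the submitters' processing notes. No RMA version is stated there. RMA compresses differences at low signal, and its quantile step hides a change in total RNA per cell. Array medians lay between 50.6 and 52.7, and the number of arrays limits the precision (median SE of a difference 0.08 over genes). Labels give no batch. Intensities were log2 transformed, and 62 control probe sets were left out.

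Of the probe sets, 41091 had exactly 1 symbol in the platform annotation, 1801 several and 11721 none; 41037 Entrez numbers matched a current gene table (GRCh38.p14) and 0 symbols changed. limma 3.58.1 in R 4.3.3 (lmFit, eBayes, 2-sided) was run over 54613 probe sets, and over 19775 genes, each read by its probe set of highest mean. P-values were Benjamini-Hochberg adjusted over each whole table. Values of the receptors come from the probe set fit; gene counts, ranks and pathway genes come from the gene fit. Differences are Dll4-Fc minus untreated in log2, ± is its SE (n = 3 per group), and intervals are at 95%.

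The receptors and the gene lists were chosen with earlier results of these data known, so shares above those of all genes are no test of them. Named were all receptors and their probe sets, in each of 5 pathway lists the 6 largest passing differences without overlap, and every ligand and further genes fixed by name, and the 3 nearest patterns of each receptor changed at least 2-fold. Probe sets named _s_at, _x_at or _a_at are called shared between transcripts, by name alone. The suffixes were not told apart, and what each probe set binds was not examined. The procedure was tested on simulated data.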

Additional observations from a re-analysis of the deposited data

How the results depend on the processing

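In 15 alternatives the directions of all 9 receptor genes held, and KIT, CSF1R, CSF2RB, CSF3R and IL10RA passed wherever they were measured. FLT3 was lost in the gene fit with the replicate block (0.28, adjusted p = 0.0524) and without Dll4-Fc replicate 2; its leave-one-out values ran from 0.23 to 0.31. IL3RA came to pass without dim probe sets (-0.21), with array weights (-0.25) and with an offset of 16 before the log (-0.20), and IL6R without dim probe sets (0.13), with array weights (0.15) and with a robust, trended prior (0.13). The cause was not tested. Without shared probe sets KIT, CSF2RA and CSF3R are not measured, so 0 receptor genes and 0 receptor probe sets fell, because fewer were tested; of all probe sets 2164 rose and 3121 fell. Same-numbered arrays deviated from their group means with correlations of -0.02, -0.14 and -0.13. These gave no sign of pairing, but with 3 arrays per group they cannot show whether the numbers pair the samples. With the replicate block 4 regulators fell. The calls of the FLT3 probe set (adjusted p = 0.0893), STAT3 (0.0672), TYK2 (0.0588) and CEBPA (0.12) were lost there too. No other call of a receptor or named gene changed with the block. JAK2, STAT5B and IRF8 came to pass in 4 alternatives each. Of the list counts, 0 ligands rose with the mean of probe sets, 4 regulators and 2 brakes fell without shared probe sets, and 8 brakes fell without dim probe sets, with a trended robust prior or with the offset, and 10 with array weights. Leaving out 1 array at a time gave 1854 to 3187 lower genes, 2906 to 5629 lower probe sets, 0 to 1 higher ligand, 4 to 6 lower regulators and 5 to 9 higher transduction genes. All receptor probe sets had means above the median probe set signal, while 5 of 10 ligand genes lay below it. Whether background limited the lower receptor signals was not tested. These include KIT with Dll4-Fc (mean 6.12), and the probe sets 211287_x_at of CSF2RA (6.10) and 217489_s_at of IL6R (5.76).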
